A study of Mus musculus with 21 samples.

Results

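The stretch of mouse chromosome 14 between 23 and 72 Mb (build NCBI37) was examined in the colon of germ-free (GF) mice. Its members are all non-control array probes whose coordinates lie in that stretch, without 37 probes of 26 genes left out by name, those whose symbols begin with Ang, Rnase, Mcpt or Cma, and Mmp14 and Ctsg. Over 2 Agilent array designs these are 1956 distinct probes of 81657, and 1294 further probes lie on the rest of the chromosome. The stretch was chosen by the day 0 and day 7 differences between genotype labels, so these differences, with their adjusted p-values, are a description of the members and not a test of them.

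The study compared mice lacking Card9, an adaptor protein that passes signals of fungal-sensing receptors in myeloid cells, with wild-type (WT) mice, both germ-free, male and on the C57BL/6J background, during colitis caused by dextran sulfate sodium (DSS) in the drinking water. RNA of the whole colon wall was hybridized to single-color arrays from 7 GF Card9-/- and 6 GF WT mice at day 0, before DSS, and from 4 GF Card9-/- and 4 GF WT mice at day 7 of 2% DSS. The days used different mice and different array designs, and only some probes are on both. The mice came from germ-free isolators, and the age of those on the arrays was not given in the sources used here.

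The labels did not match the targeted gene. At day 0 Card9 probe A_66_P128849 on chromosome 2 read 8.71 to 9.24 in the arrays labelled GF Card9-/- and 2.30 to 2.33 in the arrays labelled GF WT (normalized log2 signal). All 7 GF Card9-/- arrays and 0 of the 6 GF WT arrays were well above background, which makes the GF Card9-/- arrays at least 21.5-fold higher, and the other probe, A_66_P135237, was at least 6.23-fold higher. At day 7 the array labelled GF WT replicate 1 read 7.85, close to the GF Card9-/- arrays (7.93 to 8.57), and the other GF WT arrays read 2.38 to 2.41. Hence "higher" and "lower" below mean only arrays labelled GF Card9-/- against arrays labelled GF WT, and the main day 7 counts and differences are also given without replicate 1.

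Between 54.5 and 64.9% of probes were well above background per array at day 0, and between 42.2 and 57.1% at day 7. The colon markers Muc2, Vil1, Slc26a3, Car1 and Cdx2 were well above background on all 13 and all 8 arrays. No gene of 12 cell type marker lists was past the threshold at either day, and the labels overlapped in the mean of every list. The mean of the pancreas list was 16.9 in the day 0 GF Card9-/- replicate 7 and 5.34 to 6.30 in the other day 0 arrays. At day 7 it was 16.0, 11.9 and 6.92 in GF Card9-/- replicates 6, 2.1 and 4, and 4.78 to 5.37 in the other arrays. In whole tissue, fewer cells of a type and less RNA per cell cannot be told apart.

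The stretch is defined by position, and its genes belong to many pathways. Lrmda encodes a leucine-rich repeat protein linked to melanocyte differentiation. Slc25a37 is mitoferrin-1, which carries iron into mitochondria, and Entpd4 is a nucleoside diphosphatase of the Golgi and of lysosomes. Tnfrsf19, also called TROY, is a receptor of the tumor necrosis factor receptor superfamily and a known target of Wnt signaling. Plac9a, Tmem254a, Cphx1 and Duxbl1 lie together in a repeated block, whose copies Plac9b, Tmem254b, Tmem254c, Cphx2, Cphx3, Duxbl2 and Duxbl3 follow in the RefSeq order of 17 genes from Plac9a to Duxbl3. Cphx and Duxbl genes encode homeobox proteins.

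The probe sequences on which the results turned are printed 5′ to 3′ with their NCBI37 position, as the array files give them. The Lrmda pair is shown because a different probe stood for the gene on each design. Each spreads 60 bases over 11939 positions of the plus strand, and capitals mark the 53 bases they share.
Lrmda A_55_P2736465, day 0, chr14:23403754-23415692: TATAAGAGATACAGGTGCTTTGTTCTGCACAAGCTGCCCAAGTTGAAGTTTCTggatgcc
Lrmda A_66_P104296, day 7, chr14:23403747-23415685: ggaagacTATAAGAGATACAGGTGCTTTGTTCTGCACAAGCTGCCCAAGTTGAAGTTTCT
The next pair, both on the minus strand and both assigned to the same Slc25a37 transcript record, is shown because the probes differed between labels in opposite directions. No bases are marked.
Slc25a37 A_52_P507688, chr14:69863195-69863254: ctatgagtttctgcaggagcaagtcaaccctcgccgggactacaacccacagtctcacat
Slc25a37 A_55_P2032445, chr14:69902797-69902856: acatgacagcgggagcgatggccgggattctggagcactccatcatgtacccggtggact
The Tnfrsf19 probe, also on the minus strand, is shown because it was the one member past the threshold upwards, and no bases are marked.
Tnfrsf19 A_55_P2742341, chr14:61615452-61615511: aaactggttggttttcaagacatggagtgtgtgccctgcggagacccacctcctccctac

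In the repeated block a probe may read more than 1 copy. The promoter windows of 300 bases (RefSeq, GRCm38.p6) of Tmem254a and Tmem254c were identical, and their longest run shared with Tmem254b was 284 bases. For Plac9a and Plac9b this run was 222 bases, and for Cphx1 it was 296 bases with both Cphx2 and Cphx3. The probes themselves were not compared with transcripts of the copies, and which copy a signal came from was not tested.

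Of the 1380 member probes on the day 0 design, 1108 passed the detection filter, and 4 had an adjusted p under 0.05 (limma, Benjamini-Hochberg over 47410 probes). These were 3 Lrmda probes, lower, and 1 Tnfrsf19 probe, higher. Over all tested probes 12 were called, or 0.0253%. On the rest of chromosome 14 none of 635 tested probes was called, with 36 at an unadjusted p under 0.05. The labels did not overlap at 16 member probes (1.44%), against 0.458% of all tested probes and 0.472% on the rest of the chromosome. At an unadjusted p under 0.05 there were 84 members (7.58%) and 2769 probes in all (5.84%). Without overlap and at least 2-fold lower were 7 members (0.632%), against 0.0337% of all tested probes and 0 on the rest of the chromosome.

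At day 7 no member of 1048 tested was called by limma with Benjamini-Hochberg adjustment, nor was any of 44643 probes (0%). At an unadjusted p under 0.05 there were 44 members and 1511 probes in all. The labels did not overlap at 29 members (2.77%), against 2.13% of all tested probes and 2.12% on the rest of the chromosome. At least 2-fold lower without overlap were 10 members (0.954%), against 0.197% of all tested probes. Without GF WT replicate 1 these counts were 49 of 1136 members (4.31%), against 3.74% of all tested probes, and 14 (1.23%), against 0.43%.

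At day 0 the differences of at least 2-fold without overlap did not run along the whole stretch. They stood at 4 places, set here as the spans of the genes chosen by these differences, so that the called probes lie inside them by choice: Lrmda (chr14:23403747-23875310), Plac9a to Duxbl2 (chr14:26707044-26949248), Tnfrsf19 (chr14:61582873-61615511), and Slc25a37 with Entpd4 (chr14:69860020-70080725). At day 0 these spans held 39 tested probes, with all 4 called ones, 12 of the 16 without overlap, and all 8 that were at least 2-fold different without overlap. The other 1069 tested members held 0 called probes and 4 without overlap (0.374%), and their median difference was 0.01 on the log2 scale. Their differences ran from -1.22 to 1.41, so some with overlap were as large as those of Tmem254a or Tnfrsf19. The spans held 30 tested probes at day 7, with 8 of the 29 without overlap, all lower, and the other 1018 held 21 (2.06%). Of the 13 that were at least 2-fold different without overlap, 6 lay in the spans, all lower, and 7 outside, 4 of them lower. When GF WT replicate 1 was left out, the members without overlap were 10 of 33 tested in the spans and 39 of 1103 outside (3.54%). Between Tmem254c and Tnfrsf19, 34.9 Mb apart, 786 tested probes held 3 without overlap and none of these was 2-fold different. In bins of 1 Mb with at least 20 tested probes the median difference ran from -0.13 to 0.08 at day 0 and from -0.13 to 0.20 at day 7. Over all bins it ran from -0.62, in a bin of 8 probes, to 0.15 at day 0, and from -0.32 to 0.41 at day 7, and the bins at these ends held 5 to 10 probes. At the lower end at day 0 the last tested probe outside, of Zfp503, differed by -0.72 and the first inside, of ENSMUST00000093546, by 0.04. At the upper end the last inside, of 4930429C20Rik, differed by 0.64 and the first outside, of ENSMUST00000183221, by 0.01. None of these passed the threshold.

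**Figure D1:**
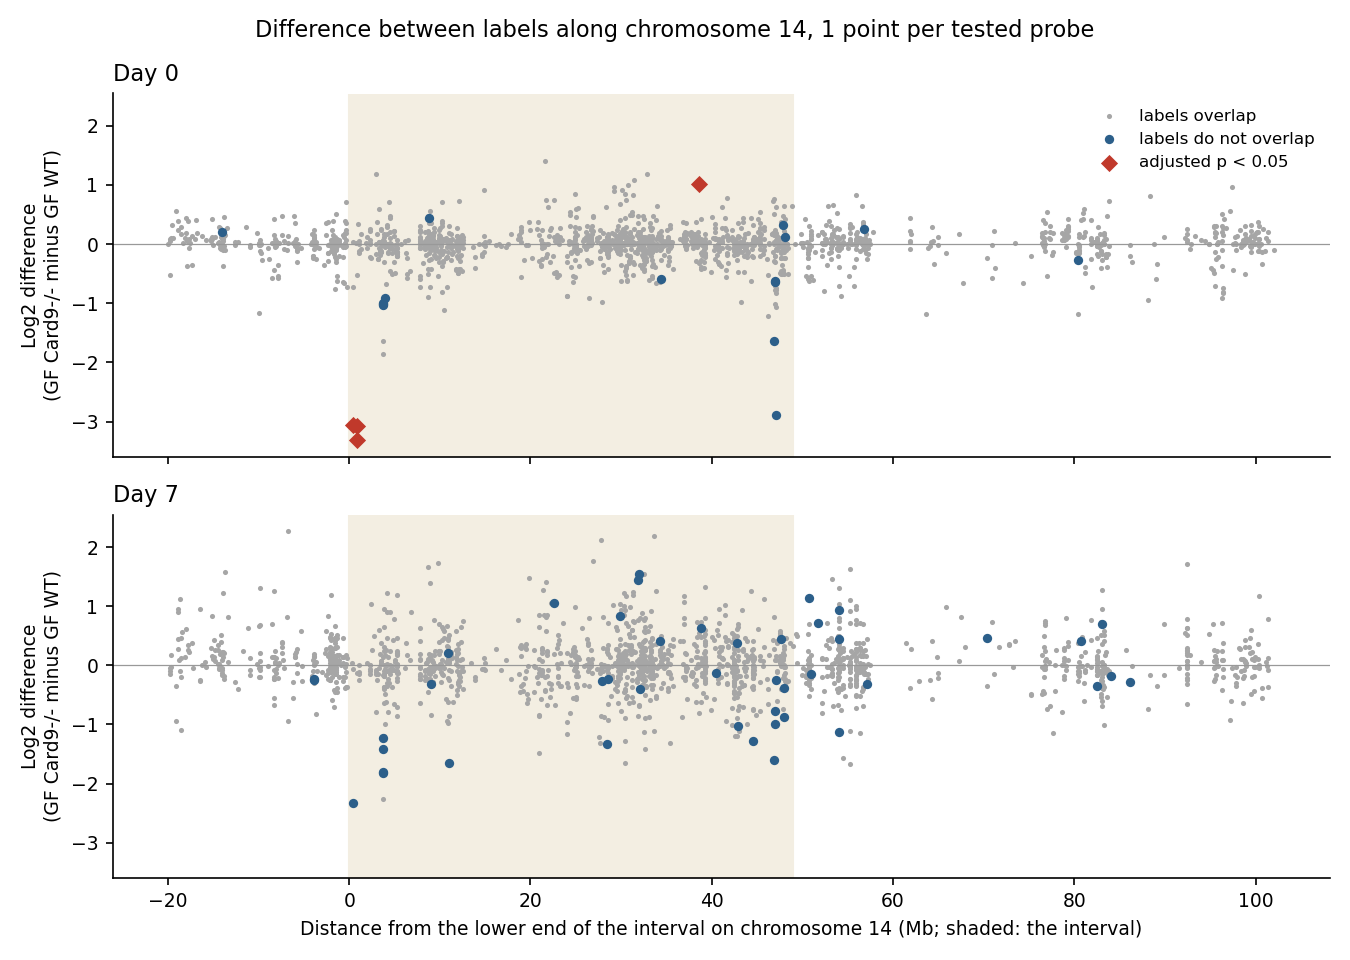
Log2 difference (GF Card9-/- minus GF WT) of each tested chromosome 14 probe against its distance from the lower end of the stretch in Mb, at day 0 (top) and day 7 (bottom), with the stretch shaded. Gray points are probes whose labels overlap, blue points probes whose labels do not, and red diamonds the 4 day 0 probes with an adjusted p under 0.05; at day 0 the points 2-fold or more from 0 without overlap gather at a few positions, and at day 7 those in the stretch number 13, of which 7 lie outside the named spans.

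Lrmda gave the widest separation at day 0. Probe A_51_P346874 (chr14:23875226-23875285) had a lowest, median and highest signal of 4.50, 4.98 and 5.28 in the GF Card9-/- arrays and 7.79, 8.06 and 9.03 in the GF WT arrays. Probe A_55_P2487834, which shares 35 bases with it, had 4.65, 5.28 and 6.90 against 8.07, 8.38 and 9.26. No array of either label entered the range of the other. The differences were 9.94-fold lower (log2 -3.31, SE 0.20, adjusted p 7.04e-06) and 8.40-fold lower (log2 -3.07, SE 0.33, adjusted p 0.00354, limma with Benjamini-Hochberg). These folds include signals that were not well above background, those of GF Card9-/- replicates 5 and 7 at the first probe and of replicate 5 at the second.

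The Lrmda probe lowest by position, A_55_P2736465, had 2.32, 2.92 and 4.05 against 5.78, 5.93 and 6.91. Of the GF Card9-/- arrays 0 of 7 were well above background, and of the GF WT arrays 6 of 6, so the probe was at least 2.82-fold lower (adjusted p 0.00133, limma with Benjamini-Hochberg). The bound sets the mean of the brighter label against the lowest signal that was well above background on each array of the dimmer one. The remaining Lrmda probe, A_55_P2636636, stayed below that limit on all 13 arrays. After normexp background correction the log2 differences of the 3 called probes, in order of position, were -0.90, -1.86 and -1.88, and in the table normalized by the authors they were -1.24, -2.27 and -2.18; all stayed past the threshold. The value of the first was not past it with the replicate number as a block, where 3 members were called.

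None of the called probes is on the day 7 design. There Lrmda was read by A_66_P104296, at 2.45, 2.58, 2.99 and 3.30 in GF Card9-/- replicates 2, 2.1, 4 and 6, and at 4.37, 4.92, 5.30 and 6.05 in GF WT replicates 1, 4, 5 and 6. The labels did not overlap (adjusted p 0.913, limma with Benjamini-Hochberg). Only GF WT replicate 6 was well above background, so no fold is given. Replicate 1 of GF WT, whose Card9 signal was high, gave the lowest of the GF WT values.

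Each day 0 array can be placed by its mean over the 4 called probes, taken as the distance from the midpoint of the label means and turned to the direction of each probe's difference. The GF Card9-/- arrays lay between 0.66 and 1.73 and the GF WT arrays between -1.91 and -1.04, a gap of 1.70 that the choice of probes sets. In scan session 1 and in scan session 2 the Lrmda probe A_51_P346874 differed by -3.15 and -3.46, and the Tnfrsf19 probe by 1.11 and 0.92.

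In the repeated block, Plac9a, a small gene first described in placenta, was lower by a similar amount on both days. At day 0 probe A_51_P215627 had 10.62, 11.90 and 13.13 in the GF Card9-/- arrays and 12.64, 13.68 and 13.93 in the GF WT arrays. GF Card9-/- replicate 1, at 13.13, lay above GF WT replicate 5, at 12.64, so the labels overlapped. The difference was -1.63 (SE 0.36, adjusted p 0.247, limma with Benjamini-Hochberg), and the second probe, A_55_P1966327, differed by -1.86 with overlap. At day 7 that second probe read 6.77, 6.46, 7.36 and 6.97 in GF Card9-/- replicates 2, 2.1, 4 and 6 and 8.36, 8.54, 9.55 and 8.42 in GF WT replicates 1, 4, 5 and 6. The labels were separate here, with a difference of -1.83. Probe A_55_P1966332 differed by -1.81 at day 7, also without overlap; GF WT replicate 5 read 14.24 and the other GF WT arrays 12.46 to 12.68. Both had an adjusted p of 0.913 (limma, Benjamini-Hochberg), and without GF WT replicate 1 they differed by -1.95 and -1.98.

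In several arrays the mean of the smooth muscle markers was high or low where Plac9a was high or low within a label. It was 16.1 in GF Card9-/- replicate 1, the highest of the day 0 arrays and the one with the highest Plac9a signal of its label, and 12.5 and 13.2 in replicates 5 and 6. In GF WT replicates 5 and 6, which had the lowest Plac9a signals of their label, it was 13.99 and 13.34, and in the day 7 GF WT replicate 5 it was 15.8, the highest at that day. Over labels the list differed by -0.48 at day 0 and by -0.50 at day 7, with ranges of 12.5 to 16.1 against 13.3 to 16.0, and of 13.04 to 15.1 against 13.4 to 15.8. Smooth muscle was not alone in this. The enteric neuron and glia mean was 10.02 in GF Card9-/- replicate 1, 8.21 and 9.145 in replicates 5 and 6, and 9.44 and 9.57 in GF WT replicates 5 and 6. In the same arrays the macrophage mean was 10.10, 7.60, 9.16, 7.885 and 8.90. In the day 7 GF WT replicate 5 these means were 9.31 and 9.73. Not every list did so, and the adipocyte mean was highest, at 12.95, in the day 0 GF Card9-/- replicate 6. The part of these lists in the Plac9a difference was not tested.

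The probes named Tmem254a and Tmem254c, genes of a small membrane protein, were separate between labels at both days. At day 0 Tmem254a probe A_55_P2110290 had 9.90, 10.64 and 11.29 against 11.51, 11.63 and 11.99, a difference of -0.996 (SE 0.20, adjusted p 0.175, limma with Benjamini-Hochberg). The probes A_51_P222453 of Tmem254a and A_55_P1967553 of Tmem254c lie within 1 kb of it and differed by -1.04 and -1.01, also without overlap. The Tmem254c probe lies below that of Cphx1, while in RefSeq order Tmem254c lies above Cphx1 and Duxbl1. Whether that probe reads a gene other than Tmem254a was not tested. At day 7 Tmem254a read 10.06, 10.16, 10.25 and 10.08 in GF Card9-/- replicates 2, 2.1, 4 and 6 and 11.68, 11.55, 11.81 and 11.20 in GF WT replicates 1, 4, 5 and 6. That difference of -1.42 (SE 0.15) had an adjusted p of 0.312 (limma, Benjamini-Hochberg), and without GF WT replicate 1 it was -1.38. Tmem254c differed by -1.22 at day 7, with GF Card9-/- replicate 4 lowest at 10.75, and by -1.29 without GF WT replicate 1.

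Duxbl2, the highest by position of the named genes of the block, had 5.34, 6.04 and 6.68 against 6.74, 7.06 and 7.13 at day 0, a difference of -0.91 without overlap. Under other normalizations, the slide block and without the array with high pancreas markers that difference ran from -0.99 to -0.47. At day 7 the difference was -0.98, but GF WT replicate 1, at 4.57, lay among the GF Card9-/- arrays (4.22 to 5.20). Without that array the difference was -1.37, and the labels were separate. The block was not uniformly lower. The homeobox gene Cphx1 differed by -0.01 at day 0 and -2.26 at day 7, with overlap at both days, and by 0.19 and -1.08 on the day 7 slides that held both labels. Probes for transcribed stretches without a gene symbol between Duxbl1 and Duxbl2 differed by 0.06 to 0.17 at day 0. At day 7 probes for such stretches differed by -0.63 to 0.95, all with overlap, and without GF WT replicate 1 by -0.78 to 0.42, 1 of them, the lowest, without overlap. The probe A_55_P2124472, also between Duxbl1 and Duxbl2 and without a gene name, differed by -1.19 at day 7 with overlap and was below background on all 8 arrays. Anxa11, the annexin gene just below the block, differed by 0.03 and 0.06 at its day 0 probes and by 0.14 and -0.17 at day 7. Day 0 GF Card9-/- replicate 6 was the lowest of all 13 arrays at each of the 6 Plac9a, Tmem254a, Tmem254c and Duxbl2 probes. Its mean of the T cell markers was 10.19, against 7.69 to 8.86 in the other day 0 arrays. Its means of the B and plasma cell markers, 10.51, and of the adipocyte markers, 12.95, were the highest of the day 0 arrays. Its smooth muscle mean was 13.2, in a range of 12.5 to 16.1 for its label. The part of these lists in the probe values was not tested. Without GF Card9-/- replicate 6 Plac9a A_51_P215627 differed by -1.42 and Tmem254a A_55_P2110290 by -0.86.

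**Figure D2:**
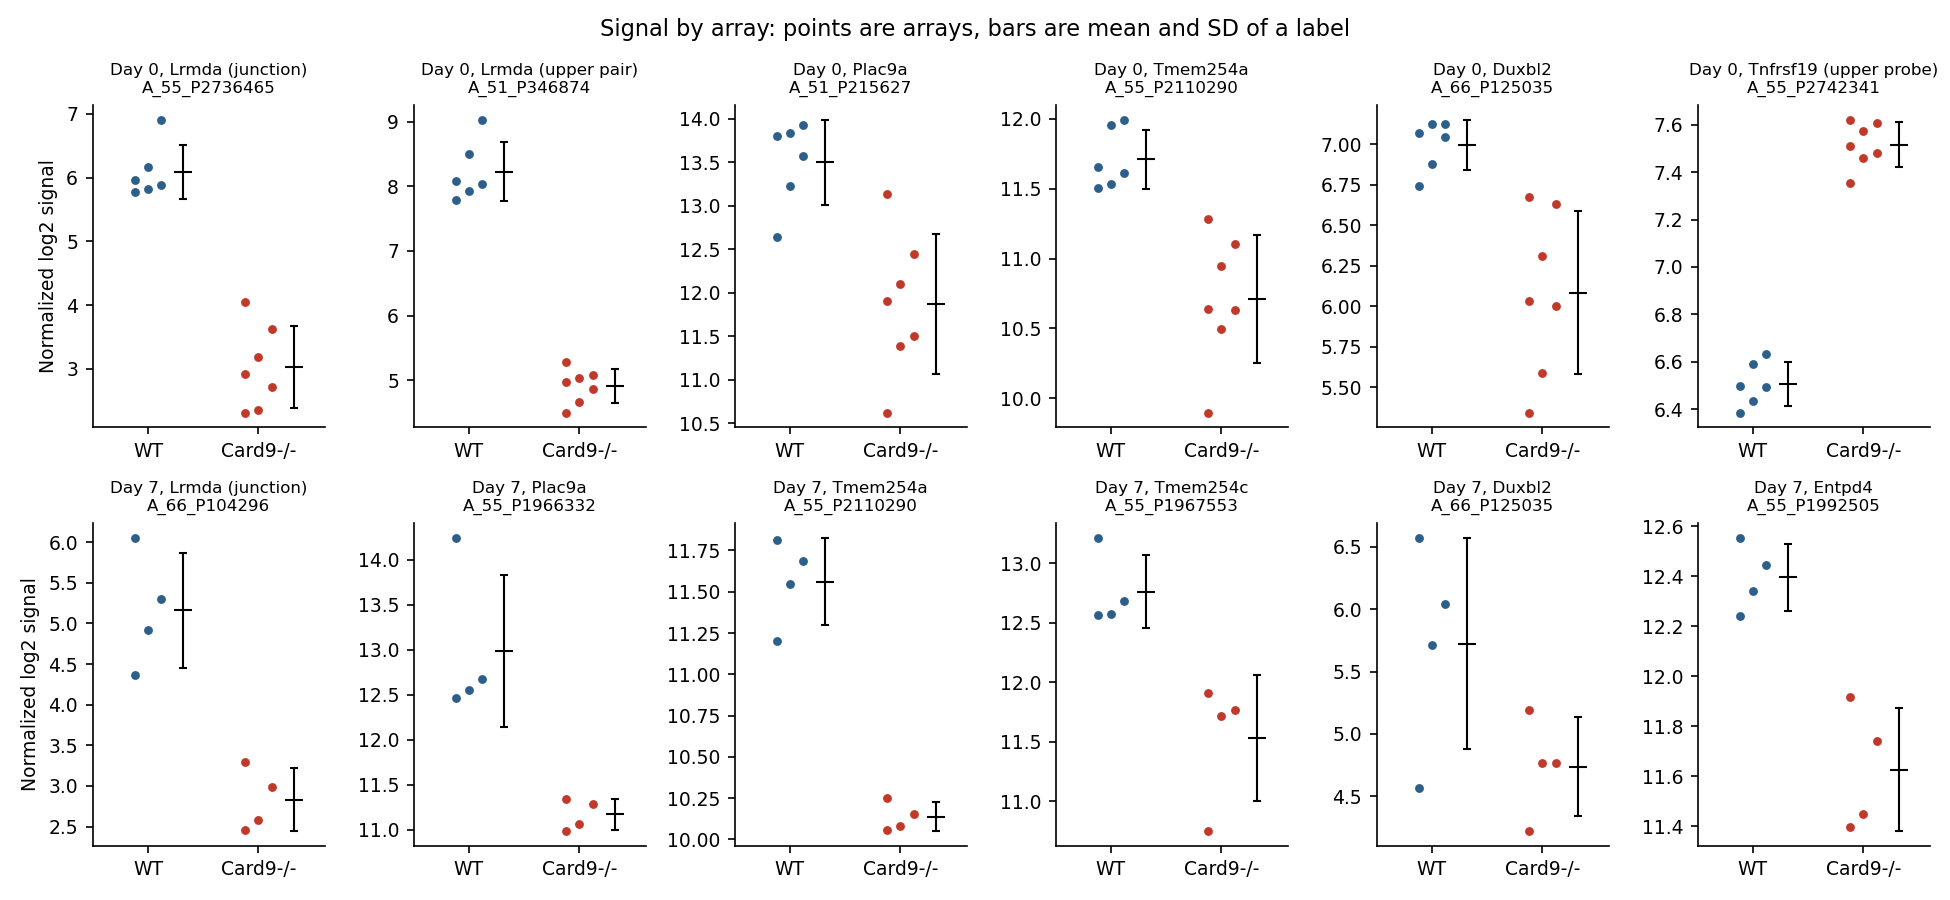
Normalized log2 signal of each array by label for 6 probes at day 0 (top row) and 6 at day 7 (bottom row); points are arrays, bars the mean and SD, and each panel has its own scale that does not start at 0. Labels are separate for Lrmda, Tmem254a and the upper Tnfrsf19 probe, and overlap for Plac9a at day 0 and Duxbl2 at day 7.

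Tnfrsf19 was read by 2 probes at day 0, and these differed in opposite directions by value. Probe A_55_P2742341 had 7.35, 7.51 and 7.62 in the GF Card9-/- arrays and 6.39, 6.50 and 6.63 in the GF WT arrays. Both labels were tight, and no array lay between them. The difference was 1.01 (SE 0.06, adjusted p 7.04e-06, limma with Benjamini-Hochberg), or 2.01-fold higher, and fell to 0.67 with normexp and 0.78 in the authors' table, still past the threshold. Probe A_51_P399305, lower by position, differed by -0.32 with overlap, at 6.26, 7.02 and 7.90 against 6.95, 7.41 and 7.92.

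At day 7 Tnfrsf19 was read by other probes. A_55_P2012439 differed by -0.80, and A_55_P2012444 by 0.54. The latter was well above background on 2 of the 4 GF Card9-/- arrays and on 0 of the 4 GF WT arrays. The labels overlapped at both, and within the slides that held both labels the values were 0.29 and -0.91 for the first and 1.55 and -0.03 for the second. The first differed by -0.20 without GF WT replicate 5 and by -0.47 with normexp. The second differed by 0.05 without GF Card9-/- replicate 6, by 1.002 without GF WT replicate 1 and by 0.10 with normexp. The probe that was called at day 0 is not on the day 7 design.

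Slc25a37 and Entpd4 are neighbors on opposite strands, and their probes gave a pattern that changed from probe to probe. The Slc25a37 probe lowest by position, A_51_P343429, had 11.42, 11.56 and 11.78 against 11.06, 11.42 and 11.96 at day 0 and differed by 0.15. The next, A_52_P507688, differed by 0.52. It was highest in GF Card9-/- replicate 7, the array with high pancreas markers, at 7.44, and differed by 0.25 without that array.

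The third, A_55_P2032445, was lower, at 6.31, 6.87 and 8.50 against 8.82, 9.03 and 9.55. The difference was -1.63 (SE 0.40, adjusted p 0.310, limma with Benjamini-Hochberg) without overlap. The GF Card9-/- arrays themselves spread widely: replicates 2, 5 and 6 read 8.47, 8.50 and 8.44, and replicates 1, 3, 4 and 7 read 6.31, 6.87, 6.68 and 6.76. The probe furthest up, A_52_P622941 (chr14:70080666-70080725), which the array file names Slc25a37 although it lies beyond Entpd4, showed the same arrays apart. Replicates 2, 5 and 6 read 5.93, 6.02 and 6.32, and replicates 1, 3, 4 and 7 read 2.38, 2.40, 2.37 and 2.40, against 6.45 to 7.29 in GF WT. Only those 3 GF Card9-/- arrays were well above background there, and the difference of -2.89 (SE 0.78) had an adjusted p of 0.392 (limma, Benjamini-Hochberg). It was -1.11 with normexp and -1.63 in the authors' table.

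Entpd4 was lower at all 3 of its probes at day 0 by value, none past the threshold. Probe A_55_P1992505 had 12.13, 12.33 and 12.67 against 12.87, 13.03 and 13.18, a difference of -0.64 (SE 0.11, adjusted p 0.085, limma with Benjamini-Hochberg), or 1.55-fold lower. Replicates 2, 5 and 6 were again the GF Card9-/- arrays nearest to GF WT, at 12.67, 12.64 and 12.59. Probe A_51_P302222 differed by -0.62 without overlap. It lies opposite A_52_P677074, a probe on the other strand, which differed by -0.20 with overlap. Probe A_52_P582907 differed by -0.78 with overlap, since GF Card9-/- replicate 5 read 7.63 and GF WT replicate 4 read 7.52. With normexp, Entpd4 A_55_P1992505 had an adjusted p of 0.0482 (limma).

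At day 7, 2 of the 4 Slc25a37 probes and 2 of the 3 Entpd4 probes were tested. Slc25a37 A_51_P343429 differed by 0.28 with overlap. A_55_P2032445 read 6.46, 8.45, 6.86 and 6.99 in GF Card9-/- replicates 2, 2.1, 4 and 6 and 8.94, 8.92, 8.73 and 8.53 in GF WT replicates 1, 4, 5 and 6. The labels were separate, with replicate 2.1 next to GF WT. The difference of -1.59 (SE 0.41, adjusted p 0.913, limma with Benjamini-Hochberg) was -2.01 without replicate 2.1 and -1.54 without GF WT replicate 1. Entpd4 differed by -0.995 at A_52_P582907 and by -0.77 at A_55_P1992505, both without overlap, and replicate 2.1 was the highest GF Card9-/- array at both. These were -1.003 and -0.82 without GF WT replicate 1. Under other normalizations, the slide block and without the arrays with high pancreas markers, A_52_P582907 ran from -1.02 to -0.62. A_55_P1992505 then ran from -0.85 to -0.73. On the slides that held both labels A_55_P2032445 differed by -2.07 and -0.47.

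The other probes between and around the 2 genes differed by -1.06 to 0.77 at day 0, and the labels overlapped at each. Synb, the syncytin B gene derived from a retroviral envelope, gave the highest of these values and stayed below the limit of background on all day 0 arrays. Gm16677, between the genes, differed by 0.16. Just above it the probes of ENSMUST00000183648 and ENSMUST00000183906 differed by -0.59 and -0.71, and the first of these was below background on all arrays. Gm10325, above Entpd4, differed by -1.02 at day 0 and by 0.09 at day 7, and Gm10002, below background on all day 0 arrays, by -1.06.

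**Figure D3:**
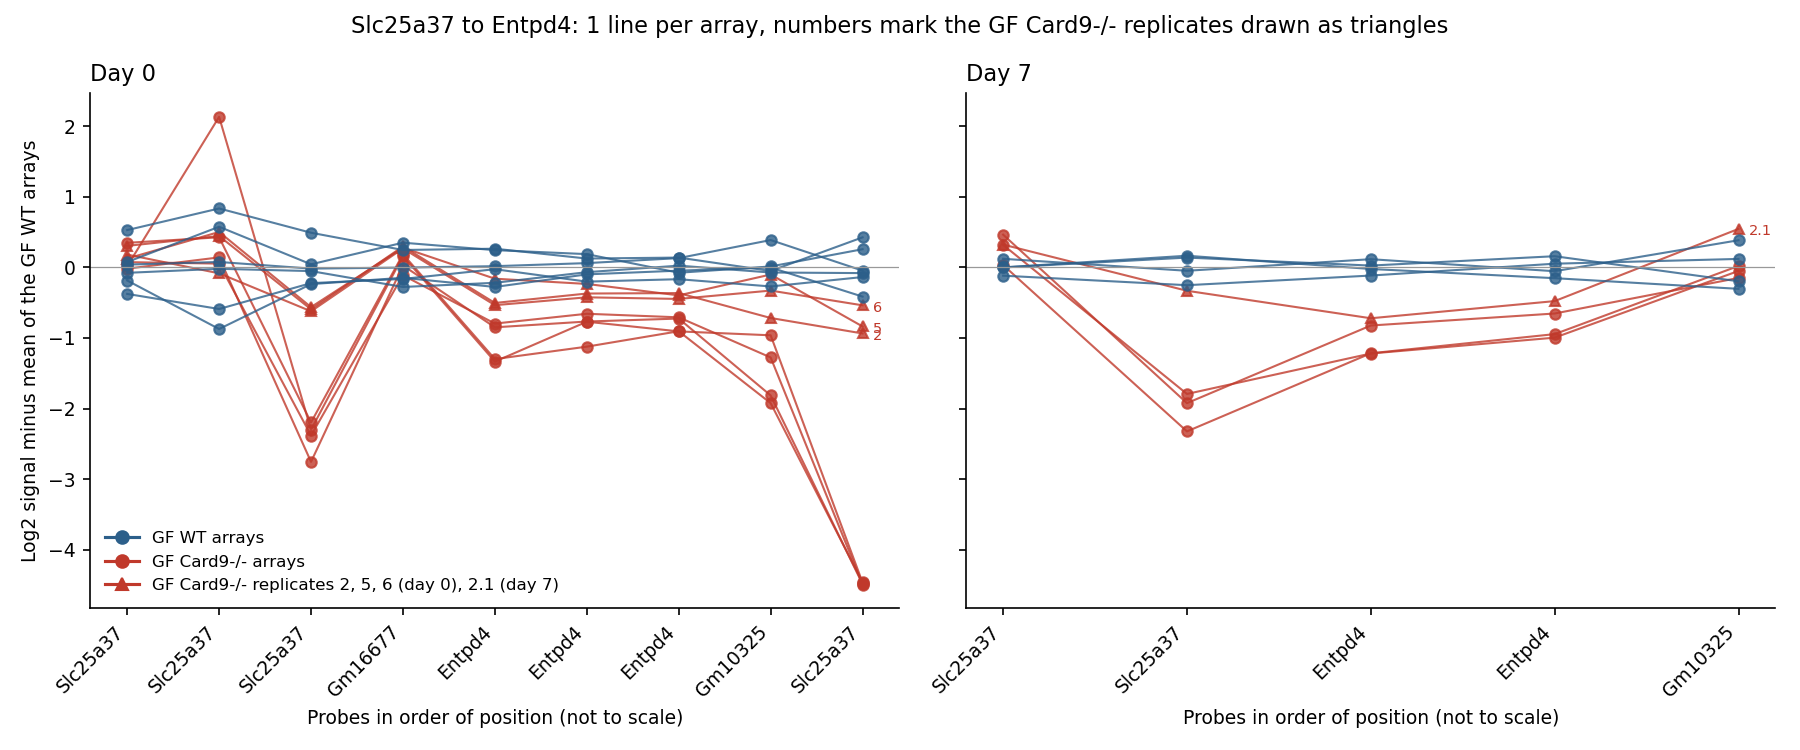
Log2 signal minus the mean of the GF WT arrays (y axis) at the probes from Slc25a37 to Entpd4 and beyond in order of position (x axis, not to scale), 1 line per array, at day 0 (left) and day 7 (right). GF Card9-/- arrays (red) dip at Slc25a37 probe A_55_P2032445 (the third point at day 0, the next after the first at day 7), at Entpd4 and, at day 0, at the last probe, and replicates 2, 5 and 6 (day 0) and 2.1 (day 7), drawn as triangles with their numbers, dip least at that Slc25a37 probe.

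Probes of 1 gene usually differed little from each other. At day 0 the range of differences between probes of a gene had a median of 0.15 over 203 member genes with at least 2 tested probes, and it was above 1 in 5 genes. The widest were Slc25a37 at 3.40 and Lrmda at 2.59, followed by Chat at 1.52, Tnfrsf19 at 1.33 and Nuggc at 1.25. The Slc25a37 range used A_52_P622941, which was below background in 4 of the 7 GF Card9-/- arrays, and was 2.15 over the other 3 probes. The Lrmda range came from the probe that was below background, and was 0.25 over its other 3 probes. Over probes that were well above background on at least 1 array, only Slc25a37, Chat and Tnfrsf19 had a range above 1 at day 0. No gene had probes called in both directions, and Tnfrsf19 alone had a called probe beside an uncalled one within 0.5 of 0. Plac9a, Entpd4 and Tmem254a had narrow ranges, 0.23, 0.16 and 0.04. At day 7 the median was 0.25 over 128 genes, and 13 were above 1, or 9 of 111 over probes well above background on at least 1 array, where Slc25a37 had the widest, at 1.88.

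Outside the 4 spans the day 0 labels were separate at 4 probes, or 0.374%, below the 0.458% of all tested probes, so their number is not a result about the stretch. Gnl3, a nucleolar GTPase gene, differed by 0.44 and 2410022M11Rik by -0.59 (adjusted p 0.085, limma with Benjamini-Hochberg). Polr3d, a subunit of RNA polymerase III, differed by 0.32, and Xpo7, an exportin, by 0.11. At day 7 Gnl3 differed by -0.06 and 2410022M11Rik by 0.49, both with overlap. The probe of 2410022M11Rik was called with normexp and in the authors' table at day 0, at adjusted p 0.0475 and 0.0497 (limma).

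At day 7 the members without overlap outside the spans, 21 or 2.06%, were near the share of 2.13% over all tested probes, so their number is not a result about the stretch. Among those higher were 5330426L24Rik, by 1.55, and C030009H01Rik, by 0.64, which at day 0 differed by 0.05 with overlap. The other probe of 5330426L24Rik, A_55_P2075657, differed by 0.37 at day 7 and 0.02 at day 0, with overlap. The probes of 5330426L24Rik and C030009H01Rik given first differed by 0.87 and 0.42 without GF WT replicate 5, and that of 5330426L24Rik by 0.50 with normexp and 0.61 in the authors' table. The probe of 4930431P03Rik was below background on all 8 arrays. Of those without a gene symbol, chosen after their values were seen, NAP026363-1 was at least 2.20-fold lower, with 3 of 4 GF WT arrays well above background, and ENSMUST00000103740 was well above background on 1 array only. All had an adjusted p of 0.312 or more (limma, Benjamini-Hochberg), and NAP026363-1 differed by 0.30 at day 0 with overlap. Without GF WT replicate 1, NAP026363-1 was at least 1.75-fold lower at day 7.

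Of the member probes, 559 were tested at both days, in different mice. The difference had the same sign at both in 269 (48.1%), against 51.5% of all 23633 shared probes and 54.2% on the rest of the chromosome. Of the 16 members without overlap at day 0, 7 were among them, and 5 of these had the same sign at day 7, 4 without overlap. These 5 were the probes named Tmem254a, Tmem254c, Duxbl2, Slc25a37 and Entpd4, and the other 2 were those of Gnl3 and 2410022M11Rik. Without GF WT replicate 1 it was again 5 of 7, all 5 without overlap, and the same sign held in 288 of 581 shared members (49.6%), against 52.6% of 24298 probes. Over all shared probes it was then 49 of 124, with 13 also without overlap at day 7. With all arrays the count over all shared probes was 57 of 123 (46.3%), with 10 also without overlap at day 7. The probes were chosen by these differences, so the counts describe them only.

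**Figure D4:**
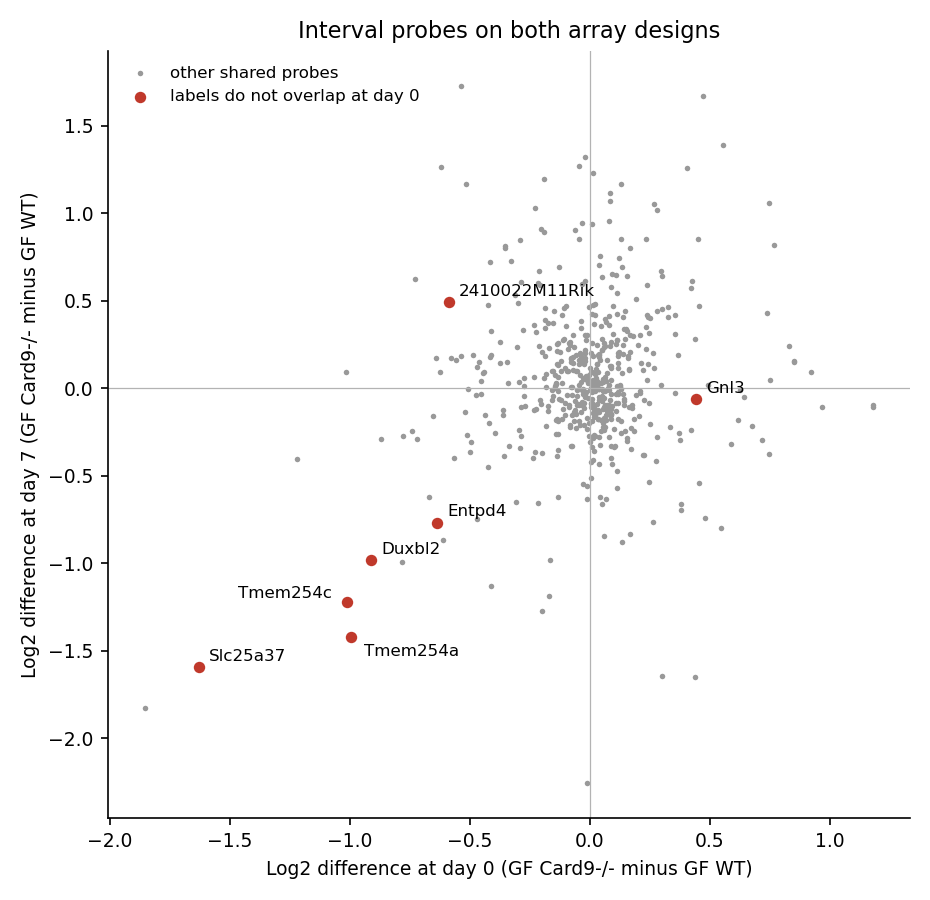
Log2 difference (GF Card9-/- minus GF WT) at day 7 against that at day 0 for the 559 probes of the stretch tested at both days, 1 point per probe. The 7 probes whose labels do not overlap at day 0 are red and named; 5 of them lie at the lower left, below 0 at both days.

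The change of the difference between days, tested as the interaction of label and day in limma, passed the threshold at 0 of 23633 probes and at 0 of 559 members, with 1688 (7.14%) and 41 (7.33%) at an unadjusted p under 0.05. The smallest adjusted p of a member was 0.281 (limma). Without GF WT replicate 1 it was 0.328, with 0 of 581 members past the threshold and 38 at an unadjusted p under 0.05. The day 7 minus day 0 change was 0.04 (SE 0.61) for Slc25a37 A_55_P2032445, -0.43 (SE 0.28) for Tmem254a and 0.03 (SE 0.67) for Plac9a A_55_P1966327. The days also differ in design, so the part of each cannot be told apart.

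Few probes of the gene groups that share the stretch with these places were called. Of 10 lists, 9 had no probe past the threshold at day 0, and in the list of BMP, WNT and TGF beta signaling genes 1 of 15 probes, that of Tnfrsf19, was called. The median differences of the lists ran from -0.42, in that list, to 0.13, in the T cell receptor alpha and delta genes (6 genes tested), against 0.02 over all tested probes. The granzymes of the chromosome 14 cluster, proteases of cytotoxic cells, had a median of -0.24 over 4 probes, and the proteasome genes 0.05 over 4. Among 15 probes of mitochondrial proteins, those without overlap were both named Slc25a37, and among 7 probes of nucleotide phosphate and purine enzymes both were of Entpd4. At day 7 no list had a probe past the threshold, and the medians ran from -0.16 to 0.27, in the nucleotide enzymes and in the T cell receptor genes. Without GF WT replicate 1 no list had a probe past the threshold either, and the medians ran from -0.44, in the nucleotide enzymes, to 0.60, in the granzymes (5 probes).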

How the data were processed

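Per the labels, total colon RNA with a high integrity number was labelled with Cy3 and hybridized to Agilent arrays of 60-base probes, and the authors read the scanned images with Feature Extraction 10.7.3.1 (submitters' processing notes). The deposited intensity values are background-subtracted signals, not normalized between arrays, with a deposited detection p-value per spot. The authors also deposited log2 values, quantile normalized, used as an alternative; the signal column behind them was not given in the sources used here. The signals were averaged per probe on the log2 scale and quantile normalized per day. Probes detected (p under 0.05) in at least 60% of arrays of 1 label were tested with limma 3.58.1 (R 4.3.3) and Benjamini-Hochberg adjustment over each design: 47410 of 56605 at day 0 and 44643 of 55681 at day 7. The script was tested on simulated data. The number of arrays limits the precision. Nothing says whether mice shared cages or litters, so p-values measure the spread between these arrays.

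Coordinates are those of the array files (NCBI37). At day 0, 659 of the tested members were named through RefSeq records, 241 by the files and 208 not at all; at day 7 it was 522, 133 and 393. The members, gene lists and marker lists were chosen with earlier results of these data known. Named were all tested probes of Lrmda, Plac9a, Tmem254a, Entpd4, Slc25a37 and Tnfrsf19, up to 12 called genes per direction at day 0, the 3 largest per direction with a symbol without overlap at day 7, called members nearest the ends, called list members, and Card9. Other names were chosen after their values were seen. Day 7 GF Card9-/- replicates 2 and 2.1 differed about as much as other pairs (SD ratio 0.939) and count as 2 mice. At day 0 all 4 slides held both labels, in 2 scan sessions; at day 7, 2 of 6 slides did.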

Additional observations from a re-analysis of the deposited data

Results flagged for a closer look

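Of 84 sets of arrays of 1 label looked at for the named probes, 9 had a highest or lowest array set apart from the rest by a wide gap; chance gives about 1 in 20. At day 0 these included Slc25a37 A_52_P507688 in GF Card9-/- replicate 7, at 7.44 with the nearest array at 5.81, and Lrmda A_55_P2736465 in GF WT replicate 6, at 6.91 with the nearest at 6.17. Polr3d was low in GF WT replicate 1, at 9.31 with the nearest at 9.45. At day 7 both Plac9a probes stood apart in GF WT replicate 5, A_55_P1966327 at 9.55 (nearest 8.54) and A_55_P1966332 at 14.24 (nearest 12.68). Tmem254c in the day 7 GF Card9-/- replicate 4 was low, at 10.75 with the nearest at 11.72. The probe of 4930431P03Rik read 3.34 in GF WT replicate 4 and 2.65 in the nearest array, all below background. Card9 itself stood apart at day 7 in GF Card9-/- replicate 2.1, at 8.57 (nearest 8.02), and in GF WT replicate 1, at 7.85 (nearest 2.41). Without GF WT replicate 1 the Card9 difference was 5.73 with an adjusted p of 0.00129 (limma); with it, 4.37 with an adjusted p of 0.913.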

How the results depend on the processing

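The day 0 count of 4 called members (12 probes called in all) became 6 with normexp (27 in all) and 5 in the authors' table (22 in all). It stayed at 4 with the 75th percentile, without the detection filter and with probes well above background only. The count was also 4 with slide or scan session as a block, without the array with high pancreas markers and without any 1 array. Where it was 4 under an alternative, 8 to 16 probes were called in all. With the replicate number as a block it was 3 (7 probes called in all). The replicate numbers do not mark shared mice: over 6 pairs at day 0 the correlations of their deviations ran from -0.02 to 0.37, and in 2 of them the GF Card9-/- array correlated best with the GF WT array of its number. No member was called at day 7 under any alternative, the replicate block included (0 members, 1 residual degree of freedom). At day 7 the 10 members at least 2-fold lower without overlap became 5 with normexp and 5 in the authors' table (0.477% each, against 0.0134 and 0.0224% of all tested probes), 6 with probes well above background only (1.01 against 0.0707%), 21 without the 2 arrays with high pancreas markers, an alternative chosen after seeing the data (1.99 against 0.765%), and 11 to 21 without any 1 array (0.981 against 0.366% without GF Card9-/- replicate 2, 1.86 against 0.877% without GF WT replicate 6). With the 75th percentile they were 12 (1.15%), while all tested probes rose from 0.197 to 0.665%. The 29 without overlap became 55 with replicates 2 and 2.1 averaged (4.79% against 4.3% of all tested probes), 121 without those 2 arrays (11.5 against 11.1%) and 42 to 89 without any 1 array (3.69 against 3.66% without GF WT replicate 5, 7.89 against 7.1% without replicate 6), shares near those of all probes. With normexp 1 member called at day 0 had the same sign at day 7 (main 0), and 2 genes, not 1, had a called and a near-0 probe. The gap between labels over the 4 called probes was 1.06 in the authors' table. Without any 1 array the day 0 counts were 16 to 24 without overlap (1.39 to 2.08%, against 0.485 to 0.995% of all tested probes). At least 2-fold lower were 5 to 10 (0.436 to 0.883%, against 0.0269 to 0.0437%). The 24 and the 0.995% were both without GF WT replicate 5. The named probes followed were those of the named genes and the members without overlap at day 0. Under other normalizations, the slide blocks and without the arrays with high pancreas markers 207 of their values kept direction and side of the threshold, and 3 passed it newly, Entpd4 with normexp and 2410022M11Rik with normexp and in the authors' table. Without 1 array 470 did, and Card9 at day 7 passed it newly. None of these changed sign. They do not cover the replicate block, where Lrmda A_55_P2736465 lost its call, nor the other printed values. Of those, without GF WT replicate 1 at day 7, Gm10325 changed sign to -0.01, and so did the medians of the neuronal list, from 0.08 to -0.31, of the solute carriers, from 0.08 to -0.02, and of the BMP, WNT and TGF beta list, from 0.11 to -0.04. Probes below background have only bounds.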
